A study of Mus musculus with 4 samples.

Results

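The genes described here code for 31 proteins that the liver of the mouse fetus makes, most of which it releases into the blood. They were taken from a list of plasma proteins and liver genes, which was drawn up with earlier results of these arrays known. Of the 31 genes, 29 had a probe set that names a single gene, among 18193 genes measured on the same arrays. *Trf*, the iron carrier transferrin, was found only on a probe set that also names *Srprb* and was not used here, and *Gc*, the vitamin D carrier, was not analysed here. The 29 genes had 50 probe sets in all, with 18 genes on 1 probe set and 11 on several. *Hnf4a* and *Cps1* belong to the list but do not code for secreted proteins, the first being a transcription factor of hepatocytes and the other a mitochondrial enzyme of the urea cycle.

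Hepatocyte precursors bud from the foregut endoderm and form the liver in the trunk of the embryo, where they begin early to transcribe the genes of the plasma proteins. Albumin, alpha-fetoprotein, the apolipoproteins, fibrinogen and most coagulation factors in blood come from these cells. In the fetus the visceral yolk sac makes several of the same proteins, and the epithelium of the choroid plexus in the brain is known for its high *Ttr* transcription. The proteins travel in plasma but their mRNAs do not, so that transcript levels in a tissue without liver show which of these genes are also transcribed elsewhere.

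Gene expression was measured on 4 Affymetrix mouse arrays. These held RNA of *Hand2NC* heads at E12.5, wild-type heads at E12.5, *Hand2NC* whole bodies at E11.5 and wild-type whole bodies at E11.5. *Hand2NC* embryos carry *Hand2 CAT/+; Wnt1-Cre*, in which a Cre driven by *Wnt1* turns on a *CAG*-driven *Hand2* transgene in the neural crest lineage, and *Hand2* is a transcription factor of the mandibular arch. All embryos were of a mixed C57BL/6J x ICR background. RNA of several embryos was pooled for each array, so that each group has 1 array, no difference has a replicate check and no p-value was computed. The labels name the whole body at E11.5, whereas a legend of the study speaks of heads. Stage and tissue differ together in every comparison of heads with bodies and cannot be told apart. In bulk RNA, fewer cells of a type and less RNA per cell cannot be told apart either.

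The values are signals of arbitrary unit, scaled to the same trimmed mean on each array. The median signal over all probe sets was 102 for *Hand2NC* heads, 106 for wild-type heads, 101 for *Hand2NC* bodies and 97.2 for wild-type bodies, and signals below it were treated as dim, with no order among them. The labelled tissues were checked with other genes. Of 9 trunk Hox genes, 0 lay at or above the median on both head arrays and 8 did so on both body arrays, and, with dim signals raised to the array median, 9 of 12 heart muscle genes were 2-fold or more lower in heads than in bodies of both genotypes. By the same measure, 5 of 11 head and brain genes were 2-fold or more higher in heads of both genotypes and 0 were lower. Trunk and heart transcripts were thus present on the E11.5 arrays. A *Hand2* probe set had signals of 706 in *Hand2NC* heads and 33.4 in wild-type heads, and of 314 in *Hand2NC* bodies and 67.1 in wild-type bodies. A second *Hand2* probe set had 839 and 592 in *Hand2NC* and wild-type heads, and 1244 and 1214 in *Hand2NC* and wild-type bodies. The Y-linked *Eif2s3y* had a signal of 14.4 in *Hand2NC* heads, against 956 in wild-type heads, and it had 853 in *Hand2NC* bodies and 840 in wild-type bodies. *Kdm5d* and *Uty*, also Y-linked, had 8.7 and 2.0 in *Hand2NC* heads, against 677 and 402 in wild-type heads. All 3 Y-linked genes measured were bright on the other 3 arrays. The *Hand2NC* head pool therefore differed from the other pools in Y-linked transcripts. Genotype and Y-linked transcripts thus differ together at E12.5 and cannot be told apart there.

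The fetal liver genes were bright in E11.5 bodies and mostly dim in E12.5 heads of either genotype. On both body arrays 22 of 29 genes lay at or above the array median, beside 11365 of all 18193 genes. On both head arrays 3 of 29 did, namely *Ttr*, *Vtn* and *Afp*, and these 3 were among the 22. Among all genes at or above the median on both body arrays, 96.5% were also at or above it on both head arrays. Since a ratio to a dim signal has little meaning, dim signals were raised to the array median, which gives each fold as a lower limit. In this way 16 of 29 genes were 2-fold or more lower in heads of both genotypes, beside 0.698% of all genes, and 0 of 29 were 2-fold or more higher (1.05% of all genes). The count was 17 in *Hand2NC* and 16 in wild-type, beside 0.951% and 0.962% of all genes. *Hpx* made the difference, with a fold of at least 2.16 in *Hand2NC* and at least 1.89 in wild-type.

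**Figure D1:**
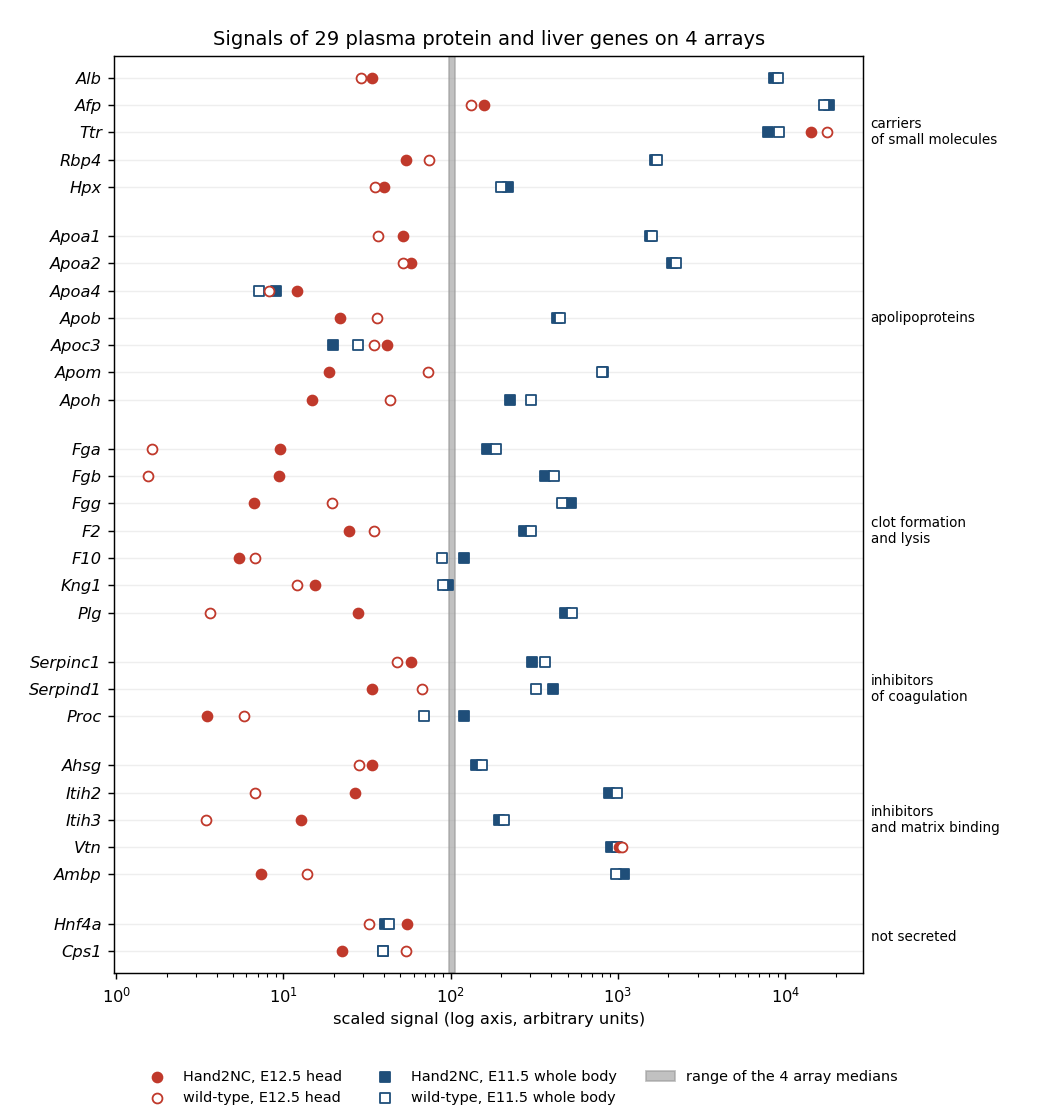
Scaled signal (log axis, arbitrary units) of the 29 measured fetal liver genes on the 4 arrays, with 1 point per array and the genes grouped by role. The grey band spans the 4 array medians, and the head points of *Ttr*, *Vtn* and *Afp* lie above it while those of the other 26 genes lie below it.

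With signals as measured, the median difference over the 29 genes was -4.10 on the log2 scale in *Hand2NC* (head minus body) and -3.59 in wild-type, beside 0.04 and 0.01 over all genes. With dim signals raised, the medians were -1.42 in *Hand2NC* and -1.52 in wild-type. *Apoc3*, *Apoa4*, *Hnf4a*, *Cps1* and *Kng1* were dim on all 4 arrays. The filter used for all genes keeps a gene when the brighter array is at or above its median. It kept 24 of the genes in *Hand2NC*, 22 of them 2-fold or more lower in heads (2.24% of all genes), and 22 in wild-type, 20 of them 2-fold or more lower (2.61% of all genes). Of those kept, 21 in *Hand2NC* and 19 in wild-type passed through the body array alone, so that these counts follow in part from the filter.

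Of 5 carriers of small molecules, *Alb*, *Afp* and *Rbp4* were 2-fold or more lower in heads of both genotypes with dim signals raised. *Alb* codes for albumin, the main protein of plasma, and its signals were 33.7 in *Hand2NC* heads and 29.1 in wild-type heads, against 8530 in *Hand2NC* bodies and 9010 in wild-type bodies. Both heads were dim, and *Alb* was at least 83.9-fold lower in heads in *Hand2NC* and at least 85.2-fold lower in wild-type. *Afp* codes for alpha-fetoprotein, the fetal relative of albumin, and lies next to *Alb* on chromosome 5. Its signals were 158 in *Hand2NC* heads and 133 in wild-type heads, against 18323 in *Hand2NC* bodies and 17146 in wild-type bodies. The head signals lay little above the median, and the differences were -6.85 in *Hand2NC* and -7.01 in wild-type on the log2 scale, or 116-fold and 129-fold lower.

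*Rbp4* codes for the plasma carrier of retinol, which circulates bound to transthyretin. It had signals of 54.1 in *Hand2NC* heads and 73.7 in wild-type heads, against 1670 in *Hand2NC* bodies and 1713 in wild-type bodies. It was thus dim in both heads and at least 16.4-fold lower in *Hand2NC* and at least 16.2-fold lower in wild-type. *Hpx* codes for hemopexin, which binds heme, and was less bright in bodies. Its signals were 40.2 and 35.3 in *Hand2NC* and wild-type heads, against 219 and 200 in *Hand2NC* and wild-type bodies. *Ttr* codes for transthyretin, the carrier of thyroid hormone, and was the only carrier with higher signals in heads, as described further on.

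**Figure D2:**
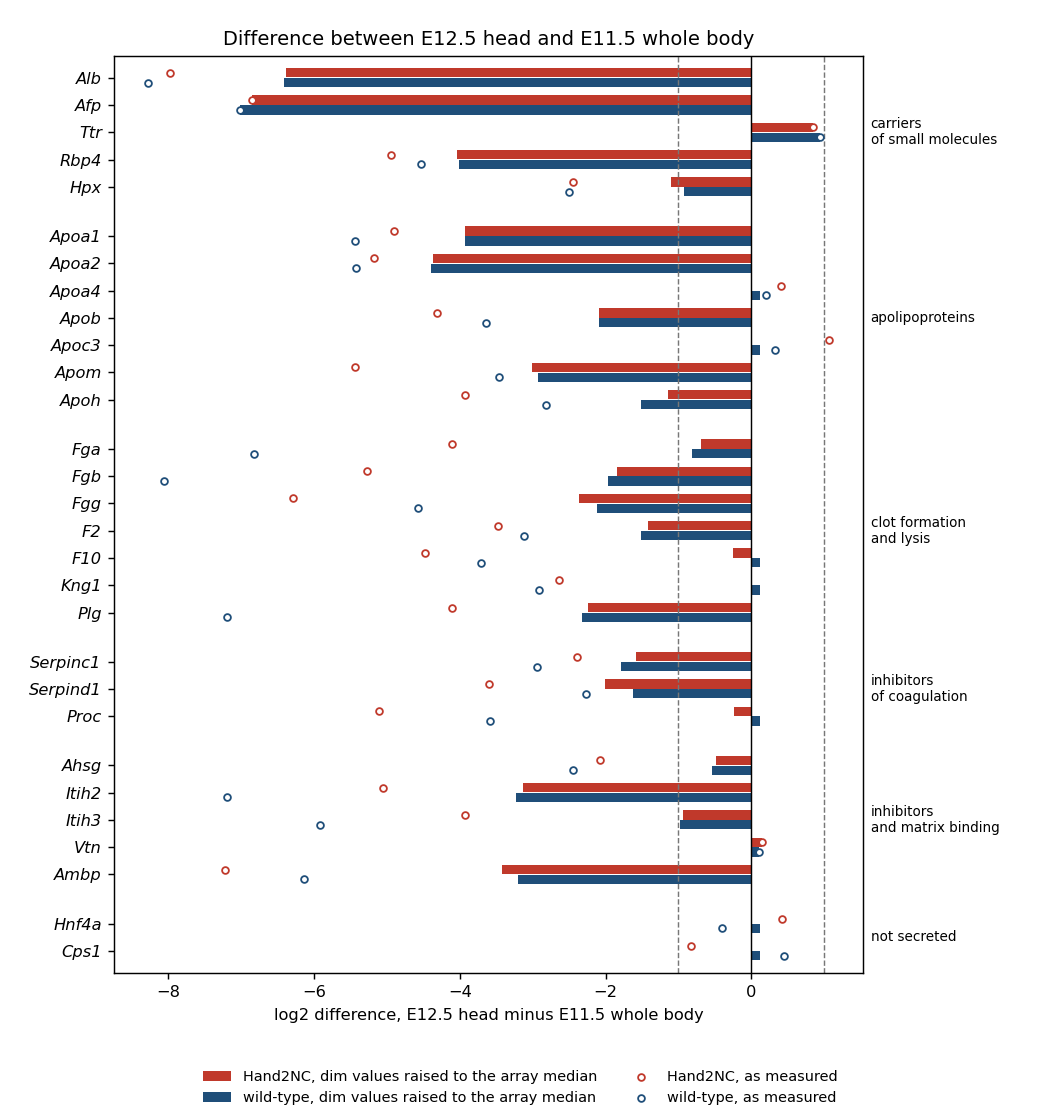
Log2 difference of E12.5 head minus E11.5 whole body for the 29 genes in *Hand2NC* and in wild-type, as bars with dim signals raised to the array median (lower limits for genes dim in heads), as open points with signals as measured, and with dashed lines at the 2-fold limits. *Afp* and *Alb* reach -6.85 and -6.39 in *Hand2NC* and -7.01 and -6.41 in wild-type, *Ttr* lies above 0 at 0.85 in *Hand2NC* and 0.94 in wild-type, and genes dim on all arrays show only the ratio of the array medians.

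The windows before the starts of *Alb*, *Afp* and *Vtn* are shown because *Alb* and *Afp* are neighbours with the largest differences when dim signals were raised, whereas *Vtn* had nearly equal signals in heads and bodies. Each is 250 bases long and ends at the base before the gene's start, from RefSeq on GRCm38.p6, all on the plus strand. Capitals mark GTTAAT, read on either strand (ATTAAC), a half-site of the palindrome that the liver factor HNF1 binds.
Alb, chr5:90460620-90460869: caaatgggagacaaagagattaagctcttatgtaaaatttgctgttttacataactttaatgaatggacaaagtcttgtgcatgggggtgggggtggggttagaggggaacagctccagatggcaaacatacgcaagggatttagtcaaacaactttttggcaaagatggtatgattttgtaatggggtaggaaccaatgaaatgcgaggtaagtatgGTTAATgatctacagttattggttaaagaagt
Afp, chr5:90490464-90490713: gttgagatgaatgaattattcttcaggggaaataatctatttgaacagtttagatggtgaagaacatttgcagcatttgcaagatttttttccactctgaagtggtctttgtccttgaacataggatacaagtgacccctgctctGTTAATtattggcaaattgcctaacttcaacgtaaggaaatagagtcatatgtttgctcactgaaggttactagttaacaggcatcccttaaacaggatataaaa
Vtn, chr11:78498870-78499119: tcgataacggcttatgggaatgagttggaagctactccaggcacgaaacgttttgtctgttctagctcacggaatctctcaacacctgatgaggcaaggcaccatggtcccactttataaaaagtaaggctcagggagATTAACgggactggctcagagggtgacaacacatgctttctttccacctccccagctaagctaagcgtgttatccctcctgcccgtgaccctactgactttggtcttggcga
The half-site begins 32 bases before the start in *Alb*, 105 in *Afp* and 112 in *Vtn*. A window was found for 23 of the 29 genes, and not for *Apoc3*, *Ttr*, *Proc*, *Kng1*, *Plg* and *Cps1*. GTTAAT was present in 6 of the 23 (26.1%; *Alb*, *Afp*, *Fga*, *Fgb*, *Hnf4a* and *Vtn*), beside 7.49% of 27025 genes with a window. TTGCNNAA, letters of a C/EBP site, were present on either strand in 10 of the 23 (43.5%), among them *Alb*, *Afp*, *Apoa2* and *Rbp4*, beside 10.8% of all genes, and overlapped GTTAAT in 0 windows. TATAAA on the gene's strand was present in 5 (21.7%, beside 8.94%), and CAAAGTCCA, letters of an HNF4 site, in 0 (beside 0.451%). The windows shown are all among the 6 that hold the half-site. It was absent from the windows of *Apoa2*, *Apoa1*, *Rbp4* and *Ambp*, which were dim in heads. The half-site thus occurred in some, but not all, genes that were dim in heads and in *Vtn*, which was bright in them.

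Among the apolipoproteins, 5 of 7 were bright in bodies and dim in heads. These proteins form and guide the lipoprotein particles that carry lipids in blood. *Apoa2*, a protein of high-density lipoprotein, had signals of 58.0 and 51.7 in *Hand2NC* and wild-type heads, against 2101 and 2229 in *Hand2NC* and wild-type bodies. *Apoa1*, the main protein of that particle, had 51.6 and 37.0 in *Hand2NC* and wild-type heads, against 1547 and 1607 in *Hand2NC* and wild-type bodies. The fold was at least 20.7 in *Hand2NC* and 21.1 in wild-type for *Apoa2*, and at least 15.2 in each genotype for *Apoa1*. All 4 probe sets of *Apoa1* were dim in both heads and at 1142 or more in both bodies. *Apom*, which carries sphingosine 1-phosphate, had signals of 18.8 and 73.2 in *Hand2NC* and wild-type heads, against 819 and 803 in *Hand2NC* and wild-type bodies. *Apob*, the structural protein of low-density lipoprotein, had 21.7 and 36.1 in *Hand2NC* and wild-type heads, against 432 and 450 in *Hand2NC* and wild-type bodies. *Apoh*, which binds phospholipids, had 14.7 and 43.2 in *Hand2NC* and wild-type heads, against 225 and 303 in *Hand2NC* and wild-type bodies. In each of these genes both head signals were dim and lay below both body signals. The other 2 were dim everywhere. *Apoa4* had 9.1 and 7.1 in *Hand2NC* and wild-type bodies, and *Apoc3* had at most 41.6 on any array. *Apoa1*, *Apoc3* and *Apoa4* lie side by side on chromosome 9, so that neighbours differed, with *Apoa1* bright in bodies while *Apoc3* and *Apoa4* were dim.

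Of 7 genes for clot formation and lysis, 4 were 2-fold or more lower in heads of both genotypes with dim signals raised, namely *Fgb*, *Fgg*, *F2* and *Plg*. Fibrinogen is built of 3 chains, coded by *Fgg*, *Fga* and *Fgb*, which lie next to each other on chromosome 3. *Fgg* had signals of 6.7 and 19.4 in *Hand2NC* and wild-type heads, against 521 and 461 in *Hand2NC* and wild-type bodies. *Fgb* had 9.4 and 1.6 in *Hand2NC* and wild-type heads, against 364 and 415 in *Hand2NC* and wild-type bodies, and *Fga* had 9.5 and 1.6 in heads, against 164 and 186 in bodies, in the same order of genotypes. The 3 chains were dim in both heads and bright in both bodies, *Fgg* being at least 5.13-fold lower in *Hand2NC* and 4.35-fold lower in wild-type, and *Fga* at least 1.61-fold and 1.76-fold lower. *Plg*, the precursor of the fibrin-cutting enzyme plasmin, had 28.0 and 3.6 in *Hand2NC* and wild-type heads, against 481 and 529 in *Hand2NC* and wild-type bodies. *F2*, the precursor of thrombin, had 24.6 and 34.6 in *Hand2NC* and wild-type heads, against 273 and 301 in *Hand2NC* and wild-type bodies. Both were dim in heads. *F10*, the precursor of the factor that cuts prothrombin, had a dim wild-type body signal, with 5.4 and 6.8 in *Hand2NC* and wild-type heads, against 120 and 88.4 in *Hand2NC* and wild-type bodies. *Kng1*, the source of bradykinin, was below the median on all 4 arrays with the probe set chosen by its mean, whereas its other probe set had 19.3 and 1.1 in *Hand2NC* and wild-type heads, against 190 and 255 in *Hand2NC* and wild-type bodies.

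Of 3 inhibitors of coagulation, *Serpinc1* and *Serpind1* were 2-fold or more lower in heads of both genotypes with dim signals raised, as were *Ambp* and *Itih2* among 5 genes of other inhibitors and matrix binding. *Serpinc1*, which codes for antithrombin, had signals of 58.2 and 47.6 in *Hand2NC* and wild-type heads, against 306 and 367 in *Hand2NC* and wild-type bodies. *Serpind1*, heparin cofactor II, had 33.8 and 67.5 in *Hand2NC* and wild-type heads, against 409 and 326 in *Hand2NC* and wild-type bodies. They were at least 3.01-fold and 4.02-fold lower in *Hand2NC* heads and at least 3.47-fold and 3.08-fold lower in wild-type heads. *Proc*, the precursor of the anticoagulant protein C, had 3.5 and 5.8 in *Hand2NC* and wild-type heads, against 120 and 69.3 in *Hand2NC* and wild-type bodies, and the wild-type body was dim. *Ambp* codes for a precursor of bikunin, the light chain that joins the heavy chains *Itih2* and *Itih3* in inter-alpha-trypsin inhibitors, which bind hyaluronan. *Ambp* had 7.3 and 13.8 in *Hand2NC* and wild-type heads, against 1087 and 970 in *Hand2NC* and wild-type bodies. *Itih2* had 26.9 and 6.7 in *Hand2NC* and wild-type heads, against 890 and 991 in *Hand2NC* and wild-type bodies. The light chain and this heavy chain were dim in both heads and at least 10.7-fold and 8.75-fold lower in *Hand2NC*, and 9.17-fold and 9.37-fold lower in wild-type. *Itih3* had 12.8 and 3.4 in *Hand2NC* and wild-type heads, against 195 and 208 in *Hand2NC* and wild-type bodies. *Ahsg*, the mineral-binding fetuin-A, had 33.7 and 28.4 in *Hand2NC* and wild-type heads, against 143 and 154 in *Hand2NC* and wild-type bodies, so that it was at least 1.40-fold lower in *Hand2NC* and at least 1.46-fold lower in wild-type.

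The list's non-secreted proteins had no such contrast with the chosen probe sets. *Hnf4a* had signals of 54.6 and 32.4 in *Hand2NC* and wild-type heads, against 40.6 and 42.7 in *Hand2NC* and wild-type bodies, and *Cps1* had 22.3 and 53.8 in heads, against 39.6 and 39.4 in bodies, in the same order of genotypes. All were dim. A second *Hnf4a* probe set was bright only in bodies, with 7.2 and 6.5 in *Hand2NC* and wild-type heads, against 116 and 161 in *Hand2NC* and wild-type bodies. For *Apob* and *Apoh* the second probe set was dim on all 4 arrays and gave no readable difference.

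The size of these differences was described among bright genes. Of 6889 genes at or above the 75th percentile on both body arrays, 10 were fetal liver genes. When the 6889 were ranked by how much lower they were in heads with dim signals raised, taking the smaller of the differences in *Hand2NC* and wild-type, 8 of these 10 were among the first 20. The 8 were *Alb*, *Afp*, *Ambp*, *Apoa2*, *Itih2*, *Apoa1*, *Rbp4* and *Apom*, and the other 2 of the 10 were *Ttr* and *Vtn*. Genes of other tissues also had large differences by this measure. The heart muscle genes *Myl2* and *Myl7* had -5.16 and -4.52 in *Hand2NC* and -5.14 and -4.38 in wild-type. In *Hand2NC* and wild-type, the erythroid *Hemgn* had -4.32 and -4.35 and the trunk gene *Hoxc8* -3.43 and -3.15, beside -3.01 and -2.92 for *Apom*. The genes ranked were chosen for bright body signals, and all of the 8 except *Afp* were dim in both heads, so that the ranking orders lower limits and follows in part from that choice.

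The genes that stayed bright in the head differed among themselves. *Ttr* had higher signals in heads, with 14209 in *Hand2NC* heads and 17721 in wild-type heads, against 7901 in *Hand2NC* bodies and 9223 in wild-type bodies. The head signals lay at percentiles 99.3 and 99.5 of their arrays. The differences of 0.85 in *Hand2NC* and 0.94 in wild-type exceeded the local spread of 0.17 and 0.19. Among all genes above the filter, 2394 of 11990 in *Hand2NC* and 2361 of 12059 in wild-type were also higher by more than their local spread. For a given gene this spread is a robust SD, taken from the log2 differences of the 500 genes closest to it in mean signal, and it contains real change as well as error. All 4 *Ttr* probe sets were higher in heads, by 0.85 to 1.26 in *Hand2NC* and by 0.91 to 1.15 in wild-type. They read the same RNA and are not replicates.

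*Vtn* codes for vitronectin, a glycoprotein of plasma and extracellular matrix that binds integrins. Its signals were 1009 in *Hand2NC* heads and 1057 in wild-type heads, against 910 in *Hand2NC* bodies and 982 in wild-type bodies, differences of 0.15 and 0.11 that lay within the local spread of 0.32 and 0.35. Its second probe set had 246 and 290 in *Hand2NC* and wild-type heads, against 248 and 260 in *Hand2NC* and wild-type bodies. *Vtn* thus had nearly equal signals in heads and bodies with either probe set. For *Afp*, by contrast, 1 of 5 probe sets lay above the median in heads. A second, with body signals of 18308 and 17069 in *Hand2NC* and wild-type, had 19.1 and 39.9 in *Hand2NC* and wild-type heads. Another had 36.1 and 54.7 in *Hand2NC* and wild-type heads, against 10180 and 10294 in *Hand2NC* and wild-type bodies. The call of *Afp* as bright in the head therefore rests on a single probe set. The probe sets of *Ttr* and *Vtn*, and this one of *Afp*, carry the suffixes that Affymetrix gives to probe sets that may detect several transcripts.

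**Figure D3:**
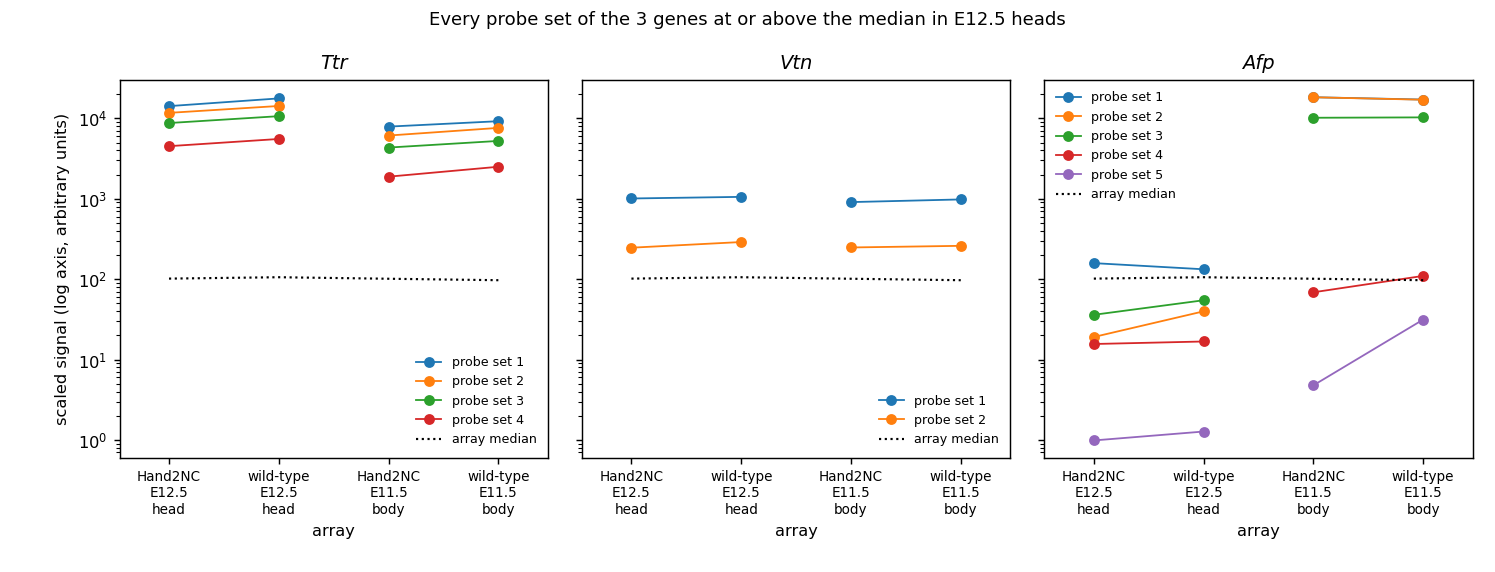
Scaled signal (log axis, arbitrary units) of each probe set of *Ttr*, *Vtn* and *Afp* on the 4 arrays, with the array medians as a dotted line and the probe sets numbered by mean signal. The 4 *Ttr* probe sets are higher in heads, the 2 *Vtn* probe sets are level, and only probe set 1 of *Afp* lies above the line in heads.

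Other genes of the tissues known to transcribe *Ttr* and *Afp* were measured beside them. Of 13 choroid plexus genes, 9 lay at or above the median on both head arrays and 6 on both body arrays, and with dim signals raised 1 was 2-fold or more higher in heads of both genotypes (*Kcne2*) and 0 were lower. Their summed signal was 4778 in *Hand2NC* heads and 5057 in wild-type heads, against 2987 in *Hand2NC* bodies and 3190 in wild-type bodies. *Clic6*, a chloride channel protein of this epithelium, had 748 and 776 in *Hand2NC* and wild-type heads, against 316 and 396 in *Hand2NC* and wild-type bodies. *Kcne2*, a potassium channel subunit, had 206 and 239 in *Hand2NC* and wild-type heads, against 60.9 and 85.9 in *Hand2NC* and wild-type bodies. *Kl*, which codes for klotho, was dim on all 4 arrays, with at most 16.3. *Otx2* was the brightest of the choroid plexus genes in heads and was also counted among the head and brain genes. It had 1511 and 1509 in *Hand2NC* and wild-type heads, against 836 and 783 in *Hand2NC* and wild-type bodies. *Sostdc1* had 1031 and 1053 in *Hand2NC* and wild-type heads, against 717 and 720 in *Hand2NC* and wild-type bodies. *Otx2* and *Sostdc1* were the largest parts of the summed signal. *Car12* went the other way, with 167 and 183 in heads, against 228 and 274 in bodies, in the same order of genotypes. The summed signal of the choroid plexus genes, like that of *Ttr*, was thus higher in heads, and their part in its signal was not tested. Of 9 genes of the visceral yolk sac, 4 were at or above the median on both head arrays and 4 on both body arrays. Their summed signal was 6565 and 6387 in *Hand2NC* and wild-type heads, against 5718 and 6373 in *Hand2NC* and wild-type bodies. Most of this sum was *Ctsz*, with 4210 and 4089 in *Hand2NC* and wild-type heads, against 3380 and 3848 in *Hand2NC* and wild-type bodies. *Rhox5* was dim in heads, with 48.7 and 55.5, and bright in bodies, with 147 and 173, in the same order of genotypes. *Amn* and *Cubn*, the receptor pair of the yolk sac epithelium, were dim on all 4 arrays, with at most 67.6, and are named here after their values were seen.

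Further liver genes were set beside the 29. Of 40 other plasma protein genes measured, 6 were 2-fold or more lower in heads of both genotypes with dim signals raised, namely *Serpina6*, *Serpinf2*, *Cfi*, *Apoc1*, *Apoc2* and *Spp2*, and 0 were higher. *Serpina6*, the carrier of glucocorticoids, had signals of 4.6 and 3.2 in *Hand2NC* and wild-type heads, against 1140 and 1237 in *Hand2NC* and wild-type bodies. At or above the median on both heads were 7 of the 40, among them *Serpinf1*, *Apoe* and *Masp1*. *Apoe*, which macrophages and glia also make, had 1271 and 1265 in *Hand2NC* and wild-type heads, against 1313 and 1434 in *Hand2NC* and wild-type bodies. Of 25 genes for proteins inside hepatocytes, 1 was 2-fold or more lower in heads of both genotypes, the fatty acid carrier *Fabp1*, with 7.9 and 12.4 in *Hand2NC* and wild-type heads, against 286 and 229 in *Hand2NC* and wild-type bodies. Of 19 liver transcription factors, 1 was lower in this way (*Gata6*) and 8 lay at or above the median on both head arrays. *Hhex*, needed for the liver bud, had 195 and 176 in *Hand2NC* and wild-type heads, against 252 and 260 in *Hand2NC* and wild-type bodies. These counts stand beside 16 of the 29 fetal liver genes, and differences between lists were not tested. With dim signals raised, a gene dim in bodies could not be called lower in heads. At or above the median on both body arrays were 22 of the 29 fetal liver genes and 14 of the 40 other plasma protein genes. The same held for 11 of the 25 genes for proteins inside hepatocytes and 9 of the 19 liver transcription factors. Red cell genes, which the fetal liver also harbours, had the same direction. Of 13 erythroid genes, 9 were 2-fold or more lower in heads of both genotypes, and their summed signal was 54766 and 58358 in *Hand2NC* and wild-type heads, against 84577 and 92283 in *Hand2NC* and wild-type bodies. Most of this sum was *Hbb-y*, *Hba-x* and *Hbb-bh1*. The brightest, *Hbb-y*, was nearly level, with 28059 and 30503 in *Hand2NC* and wild-type heads, against 29545 and 31025 in *Hand2NC* and wild-type bodies. The part of the erythroid genes in the results was not tested.

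*Hand2NC* bodies were compared with wild-type bodies at E11.5, where the fetal liver genes were bright. Of 24 genes above the filter, 0 were 2-fold or more lower in *Hand2NC* (0.269% of all genes) and 0 were 2-fold or more higher (0.177% of all genes). The differences were within 0.5 on the log2 scale in 23 of 24, with a median of -0.08 beside -0.01 over all genes. The exception was *Proc*, with signals of 120 in *Hand2NC* bodies and 69.3 in wild-type bodies (0.79, local spread 0.42), and the wild-type signal was dim. More than the local spread lower were 4 of 24 genes (17.9% of all genes), namely *Apoh* (-0.43), *Serpinc1* (-0.26), *Ttr* (-0.22) and *Itih2* (-0.16). More than the local spread higher were also 4 (16.4% of all genes), namely *Proc*, *F10* (0.45), *Serpind1* (0.33) and *Ambp* (0.17). These shares were near those of all genes, and they depended on the scaling. With arrays centred on their medians, 9 of 24 genes were lower (29.8% of all genes) and 2 were higher (10.3% of all genes). *Alb* (-0.08) and *Afp* (0.10) lay within their local spread of 0.11 each, but *Alb* was lower by more than it with arrays centred on their medians, and *Afp* higher with quantile normalization. *Ttr*, *Apoh*, *Serpinc1* and *Itih2* were lower, and *Proc* and *Serpind1* higher, by more than the spread under each of the 4 scalings. The wild-type signals of *Proc* and *F10* were dim, however. With dim signals raised, *Proc* (0.31, local spread 0.42) and *F10* (0.31, local spread 0.39) lay within their spread.

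**Figure D4:**
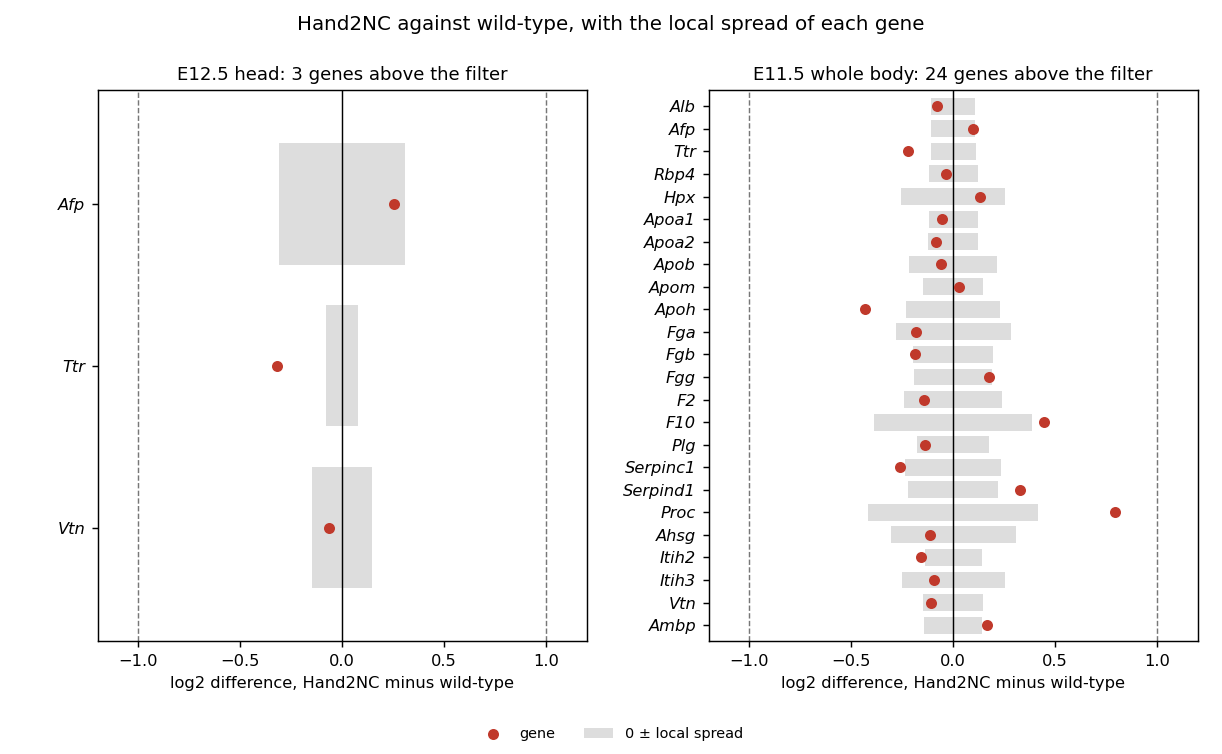
Log2 difference of *Hand2NC* minus wild-type for the genes above the filter in E12.5 heads (3 genes, left) and E11.5 bodies (24 genes, right), with grey bars for 0 ± the local spread of each gene and dashed lines at the 2-fold limits. All points lie inside the 2-fold limits, and *Ttr* lies below its grey bar at both stages.

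In E12.5 heads only 3 genes were above the filter, and 0 were 2-fold or more lower (0.195% of all genes) or higher (0.203% of all genes) in *Hand2NC*. *Ttr* was lower in *Hand2NC* heads, at 14209, than in wild-type heads, at 17721, a difference of -0.32 with a local spread of 0.08 (16.9% of all genes were lower by more than their local spread). Its 4 probe sets differed by -0.32 to -0.28 in heads and by -0.41 to -0.22 in bodies, so that *Hand2NC* was lower with each of them at both stages. *Vtn* (-0.07) lay within its local spread of 0.15, and *Afp* (0.25) within 0.31, although with arrays centred on their medians *Afp* was higher by more than its spread. Other head genes were also lower in *Hand2NC*. Of 11 head and brain genes above the filter in heads, 5 were lower in *Hand2NC* by over their local spread (*Six3*, *Neurod6*, *En1*, *Barhl2* and *Six6*) and 0 were higher, beside 16.9% of all genes in each direction. *En1* and *Barhl2* were dim in *Hand2NC* heads, and with dim signals raised (-0.36 and -0.34) both lay within their spread of 0.40. With arrays centred on their medians, *Dlx2* was higher by more than its spread. Of 10 choroid plexus genes above the filter in heads, 3 were lower in *Hand2NC* by more than the local spread (*Calml4*, *Aqp1* and *Wfikkn2*) and 0 were higher, and in bodies 3 of 7 were lower (*Clic6*, *Aqp1* and *Car12*; 17.9% of all genes) and 0 higher. *Aqp1* in heads lost its call with arrays centred on their medians and with quantile normalization. The part of these lists in the difference of *Ttr* was not tested, and the *Hand2NC* head pool also differed in Y-linked transcripts, whose part was not tested. The other 26 genes were dim in both heads, and their genotype ratios were not read.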

How the data were processed

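Total RNA of *Hand2NC* and wild-type embryos was pooled and hybridised to GeneChip Mouse Genome 430 2.0 arrays, 1 for each of 4 groups. The authors deposited linear intensity values made with MAS5 (named in the submitters' processing notes without a version), with no detection calls. The arrays' number limits the precision.

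From 45101 probe sets, 64 controls were left out, and the signals were multiplied per array so that the 2% trimmed mean equalled 500. Names came from GEO's platform annotation with a RefSeq table (GRCm38.p6), which was used for names, chromosomes and neighbours; 34945 named a single gene. Each gene was read from the single-symbol probe set whose log2 signal, averaged over 4 arrays, was highest. Genes were kept where the brighter of the compared arrays reached its median, and a 2-fold difference was counted. The local spread used the 500 genes nearest in mean signal of the compared arrays. The counting was tested on simulated data. Named genes are all members, the *Hand2* probe sets, up to 4 genes of each other list with the largest wild-type difference of head against body and up to 3 brightest in heads, and the 10 genes with the largest falls. Others named here (the further members of a count, *Kl*, *Amn* and *Cubn*, and genes beyond the local spread) were chosen after their values were seen. The members and gene lists were chosen with earlier results of these data known. Alternatives were other scalings, filters, a pseudocount of 16 and other choices of probe set; 2 of the probe set choices, and the scalings for counts beyond the local spread, were added after seeing the data. Python 3.11.15, numpy 2.4.6, pandas 2.3.3 and matplotlib 3.10.9 were used.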

Additional observations from a re-analysis of the deposited data

How the results depend on the processing

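With 1 array a group, no setting can stand in for a replicate, and signals below the array median limit every fold of a gene that is dim in heads. The counts of genes 2-fold or more lower in heads depended on the filter. They were 1 in *Hand2NC* and 1 in wild-type when both arrays had to reach their median, a setting that removes every gene dim in heads, and 9 in each when the brighter array had to reach its 75th percentile. The median difference of heads minus bodies was -1.42 in *Hand2NC* and -1.52 in wild-type with dim signals raised to the array median, and -2.87 in *Hand2NC* and -2.65 in wild-type with a pseudocount of 16. Without a filter, the median of *Hand2NC* minus wild-type in E12.5 heads was 0.19, and 9 genes were past 2-fold in either direction, all with both signals below the median. That median was -0.22 when a gene's probe sets were averaged and -0.26 with the second brightest probe set. Without probe sets that may detect several transcripts, 0 genes were bright in heads, since *Ttr* and *Vtn* have no others. With the second brightest probe set, *Apob* in wild-type (0.30) and *Apoh* in *Hand2NC* (0.26) changed sign, on dim signals. Over all settings, values of single genes moved by more than the local spread in 58 instances in *Hand2NC* and 56 in wild-type for heads against bodies, and in 9 at E11.5 and 29 at E12.5 between genotypes. Counts beyond the local spread were recomputed for the scalings only, after seeing the data. At E11.5 they were 9 lower and 2 higher with arrays centred on their medians and 5 each with quantile normalization, against 4 each as reported. The other medians, and the other counts of genes lower in heads or past 2-fold between genotypes, stayed close to the values above under the settings tried. Close means within 1.5 times, or within the local spread. Counts of genes 2-fold or more higher in heads, and counts over both genotypes together, were not recomputed under these settings. The count of genes bright in heads was not computed with dim signals raised. No paired analysis was possible because each group has 1 array.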
